A study of Mus musculus with 16 samples.

Results

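Whole mouse skin treated with SDS was compared at day 5 with and without Topsym, by RNA sequencing. The comparison rests on 4 libraries whose titles give day 5, 2 with SDS alone and 2 with SDS and Topsym, of 16 libraries in all. All 32078 genes of the deposited table were considered, and 19189 passed the filter on low values. The mice were 7 weeks old, and the labels state topical treatment for 4 days although the titles run to day 5. Both groups carry SDS, and the series has no day 5 group without it. The order and hours of the applications, the strain and the sex were not stated in the labels. The labels do not tie the 2 libraries of a group to different mice. All p-values therefore reflect library-to-library spread alone, and that spread may be technical.

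As background, Topsym is a trade name of fluocinonide preparations, a potent topical glucocorticoid. Glucocorticoids bind the receptor Nr3c1, which induces genes such as Fkbp5, Tsc22d3 and Per1 and holds down many genes driven by NF-kappa-B and AP-1, among them cytokines and chemokines. On skin they are used against inflammation and are known for thinning dermis and epidermis. That identity is background, since the labels give only the names Topsym and SDS and do not spell out the latter.

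The 4 libraries held 18113954 and 18365039 recovered reads with SDS alone and 15199656 and 18880060 with Topsym, against 20219306 to 32066246 in the other 12 libraries. The 10 highest genes took 10.3 and 10.8% of the reads with SDS alone and 14.8 and 14.4% with Topsym. Genes annotated as ribosomal RNA took 2.52 and 2.2% of the reads in the Topsym libraries and at most 0.170% in the other 14 libraries. Lars2, a mitochondrial leucyl-tRNA synthetase gene, moved with them and read 993 and 1125 with SDS alone and 22660 and 18763 with Topsym (log2 difference 4.28, SE 0.14, adjusted p = 1.16e-12). The differences also ran with gene length and GC content: over 12285 genes with a mean of at least 100, the Spearman correlation with GC was 0.234 and with length -0.273, given as a description across genes that share the same libraries. The part of these technical features in the gene differences was not tested, and an alternative that removes the length and GC trend from each library is given beside the results it was found to turn.

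**Figure D1:**
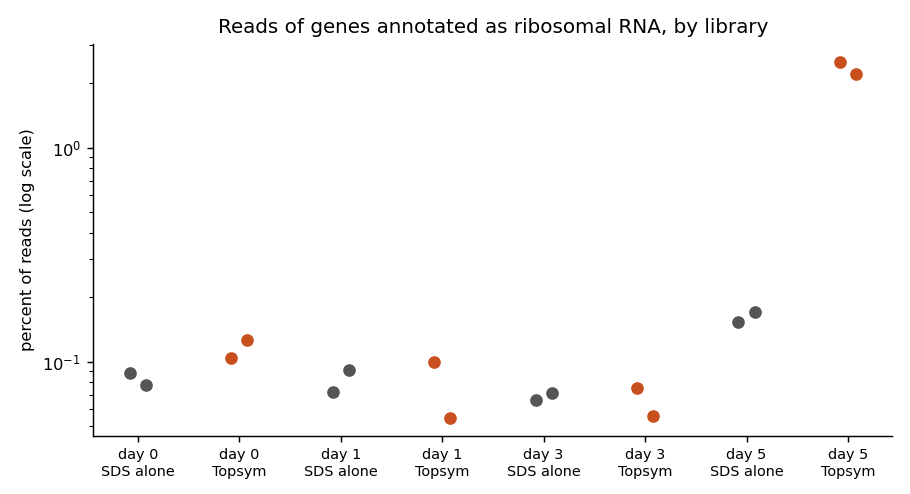
Percent of all reads that fell on genes annotated as ribosomal RNA, on a log axis, for each of the 16 libraries (points), by day and treatment. The 2 day 5 Topsym libraries lie at 2.52 and 2.2%, above all 14 others, which reach at most 0.170%.

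Epidermal markers were the most abundant of the cell type markers checked. Krt14, the main basal keratin, read 564510 and 593100 with SDS alone and 858780 and 808920 with Topsym, and Krt10, a keratin of the differentiating layers, read 301610 and 318700 with SDS alone and 461760 and 464230 with Topsym. Dermal Col1a1 read only 1044 and 1173 with SDS alone and 861 and 855 with Topsym, against means of 87780 and 134020 at day 0 without and with Topsym. The adipokine Lep, the hair follicle stem cell marker Lgr5, the inner root sheath keratins Krt25 and Krt71 and the neutrophil markers Ly6g and Elane reached at most 14.2, the value of Lgr5 in 1 library with SDS alone. In bulk tissue, fewer cells of a type and less RNA per cell cannot be told apart.

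At day 5 Topsym skin had lower levels of inflammatory, immune, dermal matrix and clock genes and higher levels of terminal differentiation, mitosis, cholesterol synthesis and skeletal muscle genes. In a limma fit over all 16 libraries, with Benjamini-Hochberg adjustment over all genes, 8976 of 19189 genes (46.8%) passed an adjusted p of 0.05, 4339 higher (22.6%) and 4637 lower (24.2%). Among them 937 (4.88%) were higher by at least 2-fold and 1816 (9.46%) lower, so larger differences lay more often on the lower side. Where the higher group averaged 100 or more, 7099 of 11751 genes (60.4%) passed. There 3751 were higher (31.9%) and 3348 lower (28.5%), so the order of the 2 directions turned. The groups did not overlap for 12245 genes (63.8%). Genes named for the size of their rise, fall or change between days were picked only where groups did not overlap. For those genes the lack of overlap carries no weight of its own. A fit to the 4 libraries alone, with 2 residual degrees of freedom, called 2196 higher and 1832 lower, and 95 of the 360 genes chosen for description lost their call in it. In that fit the count of lower calls moved by more than 1.5 times in 33 of 61 lists and that of higher calls in 26. The lower calls fell, for example, from 19 to 4 among interferon response genes, from 13 to 2 among endothelial genes, from 9 to 2 among T and NK cell genes, from 8 to 2 among hair follicle stem cell genes, from 9 to 1 among hair cycle signals and from 7 to 0 among mitochondrially encoded genes, and the higher calls from 9 to 4 among adipocyte genes, from 8 to 4 among sebaceous and among smooth muscle genes, and from 20 to 11 among nuclear respiratory chain genes. The lower calls of neutrophils, class II and the clock and the higher calls of mitosis stayed within 1.5 times. Where a gene's call ended in that fit, its adjusted p there stands beside its value. In the minor direction of a list, counts of 0 to 3 called members moved by 1 or 2 when single libraries were left out. The median difference over all genes was -0.01 on the log2 scale, which is the reference for the list medians below.

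**Figure D2:**
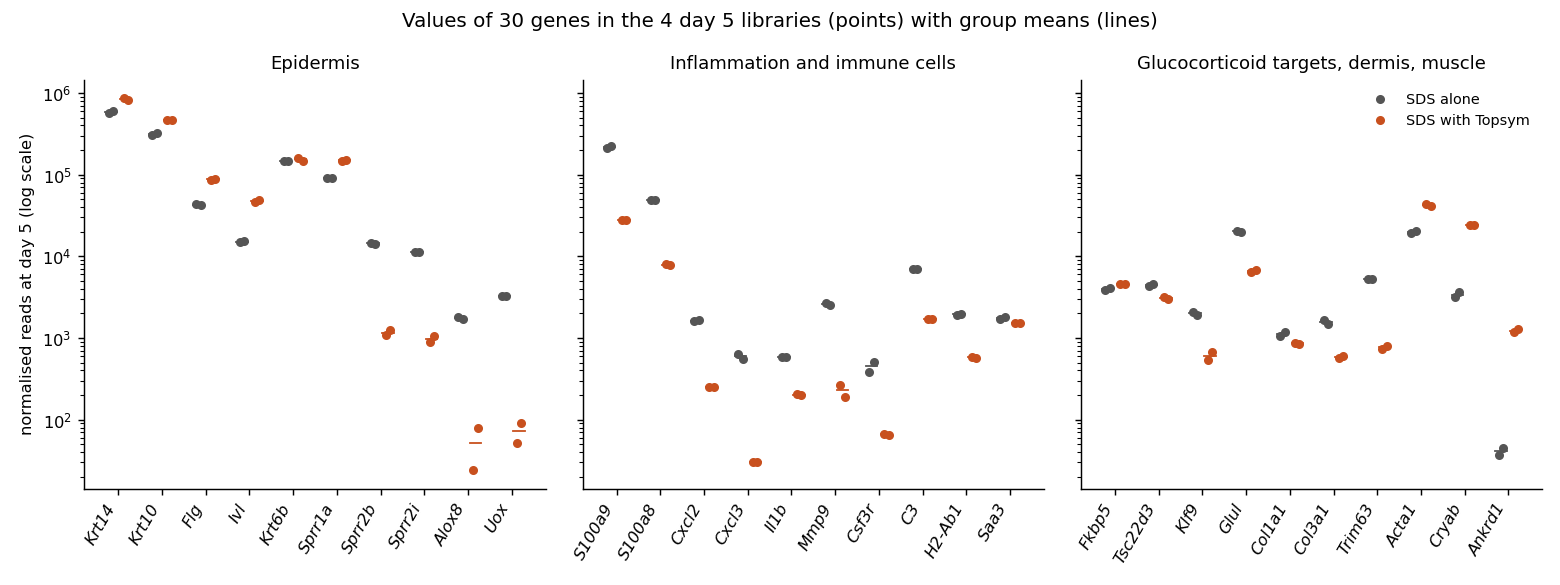
Normalised reads (log axis) of 30 genes in the 4 day 5 libraries, with SDS alone in grey and with Topsym in orange, points for libraries and lines for group means. S100a8, S100a9, the Cxcl genes, Sprr2b, Sprr2i, Alox8 and Uox lie lower with Topsym, Flg, Ivl, Cryab and Ankrd1 lie higher, and the groups lie close together for Krt6b.

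The glucocorticoid receptor gene and most of its textbook targets were lower, not higher, in Topsym skin. Nr3c1, the receptor (chromosome 18, 39410545.0 to 39519421.0, mm10), read 1192 and 1097 with SDS alone and 520 and 665 with Topsym (log2 difference -0.96, SE 0.09, adjusted p = 2.2e-07), with no overlap. Of 9 genes of the receptor and its activation, 3 were called higher and 4 lower. The chaperone partners Fkbp4 and Hsp90aa1 were among the higher ones, at 0.34 (adjusted p = 3.21e-05) and 0.33 (adjusted p = 0.00188, and 0.0844 in the 4 libraries alone). The 4 lower calls fell to 2 without replicate 2 of SDS alone, and to 2 with the length and GC trend removed. Nr3c2, the mineralocorticoid receptor, was too low to place: its values were 8.54 and 17 with SDS alone and 4.03 and 28.8 with Topsym, and leaving out Topsym replicate 1 turned its log2 difference from -0.10 to 1.18.

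Of 24 glucocorticoid targets, 16 were lower and 6 higher, with a median of -0.53. Fkbp5, a co-chaperone that dampens the receptor, was among the 6 that were higher, which also included Dusp1, Mt1, Cdkn1a and Rgcc, named after their values were seen, and Cebpb. Fkbp5 read 3833 and 4043 with SDS alone and 4615 and 4614 with Topsym (log2 difference 0.23, SE 0.04, adjusted p = 0.000286). Its 2 Topsym libraries both lay above both SDS libraries, by a small margin. Tsc22d3, which encodes the anti-inflammatory protein GILZ, read 4378 and 4566 with SDS alone and 3213 and 3040 with Topsym (log2 difference -0.52, SE 0.05, adjusted p = 7.52e-07). Per1, a clock gene with a strong response element, read 6093 and 5966 with SDS alone and 2703 and 2888 with Topsym (log2 difference -1.11, SE 0.05, adjusted p = 1.46e-10), and the transcription factor Zbtb16 read 1387 and 1379 with SDS alone and 593 and 660 with Topsym (log2 difference -1.14, SE 0.07, adjusted p = 1.28e-09). All 3 were lower with Topsym without overlap. The transcription factors Klf9 and Klf15 and the glutamine synthetase Glul fell further, at -1.73, -1.61 and -1.62. Rgcc turned from 0.33 to -0.08 with the length and GC trend removed. Cebpb, a transcription factor shared by acute phase and differentiation programs, rose from 1087 and 1002 to 3316 and 2440 (log2 difference 1.45, SE 0.12, adjusted p = 8.62e-08). At day 3 the Topsym difference of Fkbp5 had been -0.60, and its change from day 3 to day 5 was 0.83 (adjusted p = 2.19e-08).

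Calprotectin and most epidermal antimicrobials fell. S100a8 and S100a9 encode the pair of calcium-binding subunits of calprotectin, made by neutrophils and by irritated keratinocytes. S100a9 (chromosome 3, 90692632.0 to 90695721.0) read 210540 and 220930 with SDS alone and 27738 and 27973 with Topsym (log2 difference -2.95, SE 0.11, adjusted p = 5.14e-12), a 7.74-fold lower mean. S100a8 (chromosome 3, 90668978.0 to 90670035.0) read 49453 and 48624 with SDS alone and 8049 and 7748 with Topsym (log2 difference -2.63, SE 0.16, adjusted p = 2.13e-09). Both stood far apart between the groups and close within them. Of 16 antimicrobial genes kept, 11 were lower and 1 higher (2 higher without replicate 1 of SDS alone), with a median of -1.55. S100a7a, a psoriasin relative, read 1258 and 1385 with SDS alone and 80.7 and 134 with Topsym (log2 difference -3.65, SE 0.30, adjusted p = 6.3e-08), and the beta-defensin Defb3 read 2138 and 2113 with SDS alone and 196 and 144 with Topsym (log2 difference -3.66, SE 0.65, adjusted p = 0.000209). Neither gene overlapped, and their means at day 0 with SDS alone were 41.5 and 0.801. Reads of defensin genes can be shared between near copies.

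Neutrophil markers moved in the same direction beside calprotectin. Of 18 kept, 14 were lower and 1 higher, with a median of -2.10, and their summed level was 8178 and 8460 with SDS alone and 2461 and 2253 with Topsym. Csf3r, the receptor for granulocyte colony-stimulating factor, read 387 and 507 with SDS alone and 66.6 and 65.5 with Topsym (log2 difference -2.73, SE 0.15, adjusted p = 6.35e-10). Mmp9, a gelatinase of neutrophil granules also made by keratinocytes, read 2659 and 2537 with SDS alone and 266 and 189 with Topsym (log2 difference -3.53, SE 0.15, adjusted p = 2.26e-11). Neither overlapped between the groups. Cxcr2, the receptor for the neutrophil chemokines, differed by -1.23 (adjusted p = 0.000316), and Fpr1, a receptor for formyl peptides, by -4.35 (adjusted p = 0.000118, and 0.0937 in the 4 libraries alone). The defining markers Ly6g and Elane were at 0, and the part of neutrophils in the calprotectin difference was not tested.

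The 3 neighbouring chemokine genes Cxcl1, Cxcl2 and Cxcl3 on chromosome 5, which draw neutrophils, were all lower with Topsym. Cxcl1 read 171 and 149 with SDS alone and 60.5 and 60.7 with Topsym (log2 difference -1.38, SE 0.18, adjusted p = 1.22e-05). Cxcl2 read 1591 and 1668 with SDS alone and 254 and 248 with Topsym (log2 difference -2.69, SE 0.32, adjusted p = 3.59e-06). Cxcl3 read 635 and 554 with SDS alone and 30.3 and 30.4 with Topsym (log2 difference -4.25, SE 0.63, adjusted p = 4e-05). In each, the Topsym libraries were nearly equal and lay below both others. They are shown because each promoter holds the strict kappa-B core, GGGA, any base and TTTCC (searched on both strands from 250 bases before to 50 after the start, and marked in capitals), which 0.411% of 32851 RefSeq promoters held. The windows below run from 150 to 31 bases before the RefSeq start (GRCm38.p6), at chr5:90891095-90891214 on the plus strand for Cxcl1, chr5:90903749-90903868 on the plus strand for Cxcl2 and chr5:90785951-90786070 on the plus strand for Cxcl3.
Cxcl1: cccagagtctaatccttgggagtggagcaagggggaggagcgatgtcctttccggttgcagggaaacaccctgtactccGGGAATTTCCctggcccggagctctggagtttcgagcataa
Cxcl2: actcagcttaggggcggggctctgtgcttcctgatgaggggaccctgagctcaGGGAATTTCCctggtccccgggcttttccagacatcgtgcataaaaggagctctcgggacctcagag
Cxcl3: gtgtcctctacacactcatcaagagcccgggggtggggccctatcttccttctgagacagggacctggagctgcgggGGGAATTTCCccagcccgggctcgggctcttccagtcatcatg
Of 11 CXC chemokine genes with a matched promoter, these 3 held the core. A match is a description of the letters and not of binding.

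Over the whole CXC list, 10 of 13 genes were lower and 1 higher (2 higher without replicate 1 of Topsym), with a median of -1.38, or -1.05 with the 2 members at 0 reads in a group set at their bound. Cxcl9, an interferon-induced chemokine for T cells, had 66 reads with SDS alone and 2 with Topsym. The ratio was 0.038 (95% counting interval 0.00451 to 0.143, each read taken as independent). Of 17 CC chemokines, 8 were lower and 1 higher. Ccl8, a monocyte attractant, read 196 and 279 with SDS alone and 72.6 and 44.7 with Topsym (log2 difference -2.02, SE 0.19, adjusted p = 2.49e-07). Ccl2, the best known monocyte attractant, read 31.3 and 8.5 with SDS alone and 16.1 and 12.8 with Topsym, with overlapping groups, and its log2 difference turned from -0.19 to 0.69 without replicate 1 of SDS alone.

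The interleukin 1 family split. Il1b, the cytokine of activated myeloid cells, read 589 and 580 with SDS alone and 206 and 200 with Topsym (log2 difference -1.52, SE 0.14, adjusted p = 2.47e-07), without overlap. Il1a, the form stored in keratinocytes, read 1603 and 1264 with SDS alone and 1299 and 1128 with Topsym (log2 difference -0.23 (adjusted p = 0.0941)) and overlapped. Of 18 family members and receptors 9 were lower and 4 higher, with the decoy receptor Il1r2 at -1.66 (adjusted p = 5.39e-11) and the inflammasome gene Nlrp3 at -1.73 (adjusted p = 1.11e-05) among the lower. In the interleukin 6, Csf3 and STAT3 list 11 of 19 were lower and 1 higher, with a median of -0.69. Osm, a cytokine of leukocytes, differed by -2.87 (adjusted p = 0.000114), and Csf1, the macrophage growth factor, by -1.09 (adjusted p = 9.1e-09). Il6 itself was nearly absent, at 0 and 2.83 with SDS alone and 0 and 0 with Topsym.

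Markers of macrophages, like those of neutrophils above, were mostly lower, while smaller shares of dendritic, T and NK, B and mast cell markers passed. Of 22 monocyte and macrophage genes, 19 were lower and 0 higher, with a median of -0.85 and a summed level of 21691 and 21777 with SDS alone and 12164 and 11729 with Topsym. Arg1, arginase of wound macrophages and of keratinocytes, read 3298 and 3318 with SDS alone and 662 and 732 with Topsym (log2 difference -2.25, SE 0.08, adjusted p = 6.83e-12). Csf1r, the receptor that macrophages depend on, read 1382 and 1485 with SDS alone and 851 and 738 with Topsym (log2 difference -0.85, SE 0.06, adjusted p = 2.28e-08). Both fell without overlap. Cd207, the langerin of Langerhans cells, read 222 and 156 with SDS alone and 30.3 and 32 with Topsym (log2 difference -2.54, SE 0.23, adjusted p = 2e-07). Of 15 dendritic and Langerhans cell genes 5 were lower (8 without replicate 1 of SDS alone) and 3 higher. The higher ones were Ccr7, Cd83 and Fscn1, and 7 had no call. The summed level of that list was 9469.5 and 9717.4 with SDS alone and 10447 and 10095 with Topsym. Of 20 T and NK cell genes 9 were lower and 0 higher. Cd3e, a chain of the T cell receptor complex, read 56.9 and 55.3 with SDS alone and 2.02 and 14.4 with Topsym (log2 difference -3.07, SE 0.52, adjusted p = 0.000135, and 0.122 in the 4 libraries alone), on few reads. Of 7 B and plasma cell genes 2 were lower and 0 higher, and of 12 mast cell genes 2 were lower (4 without replicate 2 of Topsym) and 1 higher. Mast cell Cpa3 read 280 and 203 with SDS alone and 222 and 283 with Topsym with no call, and its groups overlapped. Red blood cell genes fell too, 6 of 7 kept, from a summed level of 9199 and 9981 to 3187 and 2725, and the hemoglobin chain Hba-a1 read 3713 and 3821 with SDS alone and 1228 and 1227 with Topsym (log2 difference -1.62, SE 0.08, adjusted p = 3.13e-10), a gene with a near-identical copy.

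Antigen presentation fell in both classes. Of 12 class II genes 10 were lower and 0 higher, with a median of -1.51. H2-Ab1, a class II beta chain, read 1931 and 1971 with SDS alone and 591 and 567 with Topsym (log2 difference -1.75, SE 0.05, adjusted p = 1e-12). The invariant chain Cd74 read 4547 and 4400 with SDS alone and 1287 and 1363 with Topsym (log2 difference -1.76, SE 0.05, adjusted p = 4.64e-13). Ciita, the master activator of class II genes, had 70 reads with SDS alone and 2 with Topsym. The ratio was 0.0359 (95% counting interval 0.00426 to 0.135, each read taken as independent). All 3 stood apart between the groups. In class I and antigen processing, 14 of 16 were lower with a median of -0.54, among them H2-K1 at -0.51 (adjusted p = 4.31e-07) and the immunoproteasome subunit Psmb8 at -1.72 (adjusted p = 1.92e-09), and 2 were higher, which neither edgeR nor DESeq2 called. Of 25 interferon response genes 19 were lower and 0 higher, with a median of -1.13, including Ifit2 at -2.49 (adjusted p = 1.46e-09) and Gbp3 at -2.36 (adjusted p = 3.47e-06, and 0.0723 in the 4 libraries alone).

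Complement and acute phase genes that passed were mostly lower. C3, the central complement component, read 6920 and 7072 with SDS alone and 1688 and 1713 with Topsym (log2 difference -2.04, SE 0.04, adjusted p = 2.93e-15), a 4.11-fold lower mean without overlap. Of 17 complement genes 11 were lower and 2 higher, and Cfd, the complement factor D that fat cells secrete, was one of the higher ones at 1.07 (adjusted p = 4.42e-10). Lbp, which binds bacterial lipopolysaccharide, read 770 and 734 with SDS alone and 143 and 118 with Topsym (log2 difference -2.52, SE 0.09, adjusted p = 2.96e-12). Of 12 serum amyloid and acute phase genes 5 were lower and 0 higher, with a median of -0.72. Saa1, a serum amyloid with near copies, read 125 and 111 with SDS alone and 24.2 and 4.79 with Topsym (log2 difference -3.30, SE 0.82, adjusted p = 0.00346, and 0.0907 in the 4 libraries alone), and without replicate 2 of Topsym its adjusted p was 0.0502. Saa3, its relative, read 1710 and 1794 with SDS alone and 1517 and 1540 with Topsym, and was not called in limma (log2 difference -0.20, SE 0.30, adjusted p = 0.633) although its groups did not overlap. DESeq2 called it at the same log2 difference with an adjusted p of 0.0166. At day 3 the Saa3 difference had been -4.80, and its change to day 5 was 4.60 (adjusted p = 4.31e-07).

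Terminal differentiation genes of the epidermis mostly ran the other way. Of 34 differentiation genes 24 were higher and 9 lower, with a median of 0.41. The lower ones were Krt2, Krt77, Krt80, Flg2, Dsg1a, Dsp, Tgm3, Tgm5 and Scel, and the lowest member of the list stood at -2.04. Flg, the filaggrin precursor that bundles keratin, read 43105 and 42473 with SDS alone and 85936 and 89262 with Topsym (log2 difference 1.03, SE 0.05, adjusted p = 2.46e-10). Ivl, involucrin of the cornified envelope, read 14864 and 15276 with SDS alone and 45612 and 49358 with Topsym (log2 difference 1.65, SE 0.05, adjusted p = 1.11e-12). Lor, loricrin, read 166280 and 175130 with SDS alone and 299520 and 275430 with Topsym (log2 difference 0.75, SE 0.11, adjusted p = 3.43e-05). All 3 were higher with Topsym in both libraries. Ovol1, a transcription factor of the late epidermal program, differed by 1.54 (adjusted p = 1.27e-10). Crnn, cornulin of the granular layer, read 82.5 and 79.4 with SDS alone and 516 and 510 with Topsym (log2 difference 2.65, SE 0.47, adjusted p = 0.000199), against day 3 means of 3.47 and 11.5 without and with Topsym. The suprabasal keratin Krt10 differed by 0.58 (adjusted p = 1.63e-07).

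Barrier lipid enzymes were higher in 13 of 26 and lower in 3, with a median of 0.21. Sult2b1, a cholesterol sulfotransferase of the granular layer, differed by 1.09 (adjusted p = 3.22e-09) and the very long chain elongase Elovl1 by 0.71 (adjusted p = 6.13e-08), while the lipoxygenases Alox12b and Aloxe3 were not called. Of 17 kallikreins and Spink inhibitors 7 were higher and 3 lower. Klk6 and Klk5, proteases of the shedding horny layer, were at 0.70 (adjusted p = 4.38e-07) and 0.63 (adjusted p = 7.51e-07), and Klk14 was lower at -2.39 (adjusted p = 0.0037). DESeq2 and the alternative with the trend removed each called 6 of this list lower.

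Krt6a, Krt6b, Krt16 and Krt17, keratins of stressed epidermis, were high in both groups and differed by at most 0.52 on the log2 scale. The list also holds Krt7, Krt8, Krt18 and Krt19, which averaged under 100 in both groups. Its counts and median therefore rest in part on scarce genes. Of 8 kept 2 were higher and 1 lower (0 lower without replicate 1 of Topsym), with a median of 0.01, but 1 was higher and 2 lower at a median of -0.20 with the length and GC trend removed. Krt6a read 94864 and 104080 with SDS alone and 100680 and 92522 with Topsym, with overlapping groups. Krt6b read 147380 and 145420 with SDS alone and 159900 and 147990 with Topsym, where the groups did not overlap but stood close together. Neither gene was called. Krt16 read 249660 and 262160 with SDS alone and 316920 and 310230 with Topsym (log2 difference 0.29, SE 0.07, adjusted p = 0.0039, and 0.0792 in the 4 libraries alone), but its difference was -0.01 with the length and GC trend removed. Krt17 read 63753 and 67872 with SDS alone and 98180 and 91137 with Topsym (log2 difference 0.52, SE 0.05, adjusted p = 8.65e-07) and was 0.18 with the trend removed. Krt6a and Krt6b are near copies. At day 3 Krt6a had been 1.44 higher with Topsym on the log2 scale, and the change to day 5 was -1.48 (adjusted p = 1.18e-08).

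Small proline-rich genes, cross-linked components of the cornified envelope clustered on chromosome 3, split by member. Of 16 kept 5 were higher and 8 lower. Sprr1a read 91878 and 91942 with SDS alone and 148420 and 152290 with Topsym (log2 difference 0.71, SE 0.06, adjusted p = 3.56e-08), and Sprr1b 82491 and 85935 with SDS alone and 130670 and 129790 with Topsym (log2 difference 0.63, SE 0.06, adjusted p = 6.49e-07). Sprr2b read 14624 and 14173 with SDS alone and 1085 and 1235 with Topsym (log2 difference -3.64, SE 0.75, adjusted p = 0.000809), and Sprr2i 11345 and 11373 with SDS alone and 893 and 1069 with Topsym (log2 difference -3.54, SE 0.20, adjusted p = 1.14e-09). The first pair was higher and the second lower, each without overlap. Reads of Sprr2 genes can be shared between near copies. The promoters of Sprr1a, Sprr2b and Sprr2i are shown because all 3 hold the AP-1 motif TGANTCA (both strands, in capitals) although the genes moved in opposite directions.
Sprr1a: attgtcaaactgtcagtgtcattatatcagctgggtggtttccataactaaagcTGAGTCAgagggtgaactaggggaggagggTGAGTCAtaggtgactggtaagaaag
Sprr2b: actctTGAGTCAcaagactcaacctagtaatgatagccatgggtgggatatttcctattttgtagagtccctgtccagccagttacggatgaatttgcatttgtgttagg
Sprr2i: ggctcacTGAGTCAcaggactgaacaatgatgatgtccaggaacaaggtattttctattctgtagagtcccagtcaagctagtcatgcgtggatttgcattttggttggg
The windows run from 200 to 91 bases before the RefSeq start (GRCm38.p6), at chr3:92485972-92486081 on the minus strand, chr3:92316505-92316614 on the plus strand and chr3:92407791-92407900 on the plus strand. Over the list 9 of 14 matched genes held the motif in any promoter, 6 of 6 lower genes and 3 of 5 higher genes. Counted by promoter and not by gene, 7.81% of all promoters held it.

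The late cornified envelope genes turned with the processing. Of 21, 12 were called higher and 4 lower with a median of 0.22, but 3 were higher and 12 lower with the length and GC trend removed, at a median of -0.29. The lower calls were 2 without replicate 2 of SDS alone or without replicate 1 of Topsym. Lce1a1 read 20275 and 20720 with SDS alone and 24552 and 24163 with Topsym, which is 0.25 on the log2 scale and -0.25 with the trend removed. Lce3d, from the group induced in damaged skin, read 5160 and 5411 with SDS alone and 11192 and 9919 with Topsym (log2 difference 1.00, SE 0.09, adjusted p = 2.45e-07). Among protease inhibitors, 10 of 21 were lower and 4 higher. Serpinb3a, an inhibitor of cysteine proteases, read 4301 and 4409 with SDS alone and 482 and 658 with Topsym (log2 difference -2.95, SE 0.45, adjusted p = 5.66e-05), while Serpinb2, the keratinocyte plasminogen activator inhibitor, read 8142 and 8479 with SDS alone and 10078 and 10438 with Topsym (log2 difference 0.30, SE 0.06, adjusted p = 0.000477). Serpinb3 genes have near copies.

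Basal layer genes split between keratins and adhesion. Krt5, the partner of Krt14, read 207900 and 228450 with SDS alone and 383440 and 372710 with Topsym (log2 difference 0.79, SE 0.05, adjusted p = 3.12e-09), and Krt14 differed by 0.53 (adjusted p = 1.74e-07, and 0.0563 in the 4 libraries alone). Krt15, a keratin of resting basal and bulge cells, read 17562 and 18708 with SDS alone and 5978 and 5978 with Topsym (log2 difference -1.60, SE 0.04, adjusted p = 3.43e-13). The laminin chain Lama3, which anchors the epidermis to its basement membrane, was lower at -1.25 (adjusted p = 1.37e-09), while the integrin subunit Itga3 was higher at 1.03 (adjusted p = 1.29e-10). Of 16 members 5 were higher and 9 lower. Among ligands of the EGF receptor, Epgn, epigen, read 377 and 327 with SDS alone and 1726 and 1983 with Topsym (log2 difference 2.39, SE 0.10, adjusted p = 1.29e-11) and Ereg, epiregulin, read 1036 and 966 with SDS alone and 2765 and 3008 with Topsym (log2 difference 1.53, SE 0.09, adjusted p = 1.02e-09). Both rose while the receptor Egfr itself was lower at -0.63 (adjusted p = 2.67e-07). Of 12 EGF family genes 4 were higher and 5 lower, and the lower calls were 2 without replicate 1 of SDS alone and 3 without replicate 2 of Topsym.

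Mitosis genes were higher almost throughout. Of 28, 25 were called higher and 0 lower, with a median of 0.74 and of 0.78 with the length and GC trend removed. Aurka, the Aurora kinase of the spindle poles, read 541 and 517 with SDS alone and 1357 and 1257 with Topsym (log2 difference 1.30, SE 0.15, adjusted p = 3.83e-06). Cdc20, the activator of the anaphase-promoting complex, read 1629 and 1638 with SDS alone and 3848 and 3420 with Topsym (log2 difference 1.15, SE 0.14, adjusted p = 4.02e-06), and the ubiquitin-conjugating enzyme Ube2c read 1245 and 1105 with SDS alone and 2592 and 2812 with Topsym (log2 difference 1.20, SE 0.10, adjusted p = 6.25e-08). In all 3 both Topsym libraries lay above both others. Mki67, the common marker of cycling cells, differed by 0.38 (adjusted p = 0.000113, and 0.0568 in the 4 libraries alone), less than at day 3 (1.81), and the change was -1.42 (adjusted p = 5.34e-09). Of 30 DNA replication genes 10 were higher and 0 lower, with a median of 0.20. The 10 were among 29 members with a mean of at least 100, where 31.9% of all genes were higher. The promoters of Cdc20 and Aurka are shown for the CCAAT box (both strands, in capitals), a motif common in mitosis genes.
Cdc20: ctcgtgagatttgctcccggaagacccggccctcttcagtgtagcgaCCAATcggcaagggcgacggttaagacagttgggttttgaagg
Aurka: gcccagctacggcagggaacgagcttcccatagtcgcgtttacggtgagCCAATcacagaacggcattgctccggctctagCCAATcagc
The windows run from 100 to 11 bases before the RefSeq start (GRCm38.p6), at chr4:118437354-118437443 on the minus strand and chr2:172370581-172370670 on the minus strand. Of 23 mitosis genes with a matched promoter 20 held the motif in any of their promoters, against 37.4% of all promoters. The first share counts genes and the second promoters, and a gene can have several. Part of the Cdc20 locus overlaps Elovl1, and whether reads were counted by strand is not stated.

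Among the genes chosen for description with reads in all 4 libraries, Uox and Alox8 fell most. Uox, urate oxidase, which breaks down uric acid, read 3288 and 3258 with SDS alone and 52.4 and 91.1 with Topsym (log2 difference -5.54, SE 0.65, adjusted p = 3.47e-06). Alox8, a lipoxygenase induced in irritated mouse epidermis, read 1780 and 1729 with SDS alone and 24.2 and 78.3 with Topsym (log2 difference -5.30, SE 0.51, adjusted p = 3.77e-07). Their levels were 39 and 32.4 on average with SDS alone at day 3, and SDS alone at day 5 had the highest mean of the 8 groups for each. Of 9 purine breakdown genes 5 were lower and 1 higher, including Xdh, xanthine dehydrogenase, at -0.63 (adjusted p = 3.48e-09). Among 21 eicosanoid genes 7 were lower and 6 higher, with the leukocyte lipoxygenase Alox5 at -2.30 (adjusted p = 2.1e-09) and the prostaglandin receptor Ptger2 at -2.32 (adjusted p = 6.29e-05). Ptgs2, the inducible cyclooxygenase, read 168 and 156 with SDS alone and 133 and 168 with Topsym and was not called.

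Dermal genes were lower on top of already low levels. Of 20 collagen chains 17 were lower and 1 higher, with a median of -0.85. Col3a1, of the fine dermal fibrils, read 1640 and 1496 with SDS alone and 573 and 593 with Topsym (log2 difference -1.43, SE 0.05, adjusted p = 1.12e-12), and Col1a1, the main fibril chain, differed by -0.37 (adjusted p = 3.2e-05, and 0.0578 in the 4 libraries alone). Dcn, the proteoglycan decorin, read 8458 and 8650 with SDS alone and 3164 and 3291 with Topsym (log2 difference -1.41, SE 0.04, adjusted p = 1.11e-12). All 3 lay lower in both Topsym libraries. Of 28 dermal matrix and fibroblast genes 20 were lower and 3 higher (5 higher without replicate 2 of SDS alone), at a summed level of 25237 and 25211 with SDS alone and 14227 and 14113 with Topsym. In the wound list 11 of 18 were lower and 3 higher, although its summed level was higher with Topsym (42037 and 42493 against 49666 and 48356), where Lgals3, a galectin named after its values were seen, was the most abundant member and one of the higher ones at 0.45 (adjusted p = 5.48e-07), or 0.13 with the length and GC trend removed. Postn, periostin, read 2165 and 2017 with SDS alone and 385 and 478 with Topsym (log2 difference -2.28, SE 0.09, adjusted p = 1.05e-11). Of 20 metalloproteinases and TIMPs 15 were lower and 2 higher, led by the collagenase Mmp13 at 713 and 682 against 76.6 and 32 (log2 difference -3.79, SE 0.35, adjusted p = 2.39e-07).

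Endothelial genes were lower in 13 of 21 and higher in 3 (1 without replicate 2 of SDS alone or replicate 1 of Topsym). Pecam1, a junction protein of vessels, read 228 and 303 with SDS alone and 173 and 133 with Topsym (log2 difference -0.79, SE 0.13, adjusted p = 0.000139, and 0.119 in the 4 libraries alone), and the adhesion molecule Vcam1 read 61.2 and 56.7 with SDS alone and 16.1 and 22.4 with Topsym (log2 difference -1.58, SE 0.20, adjusted p = 8.29e-06, and 0.0652 in the 4 libraries alone). Neither gene overlapped between groups. Other adhesion molecules of the list split, with Selp called lower, Sele called higher and Icam1 not called.

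Skeletal muscle genes, known from the thin muscle under mouse skin, were mostly higher. Of 19 kept 15 were higher and 2 lower (1 lower without replicate 1 of either group), with a median of 0.64, or 0.48 with the length and GC trend removed. Their summed level was 98787 and 102570 with SDS alone and 161000 and 164300 with Topsym. Acta1, skeletal actin, read 19472 and 20503 with SDS alone and 43938 and 40822 with Topsym (log2 difference 1.08, SE 0.06, adjusted p = 5.64e-10), and Tnni2, fast troponin I, read 6320 and 6748 with SDS alone and 15990 and 16758 with Topsym (log2 difference 1.33, SE 0.06, adjusted p = 2.8e-11). Both were higher without overlap. Myod1, the master regulator of muscle identity, had 0 reads with SDS alone and 0 and 0 against 26.2 and 36.7 as normalised values, at least 15.1-fold higher with 3 reads over the group as the floor. Smooth muscle and pericyte genes were higher in 8 of 14 and lower in 2. The higher ones were Acta2, Cnn1, Des, Myl9, Lmod1, Smtn, Synpo2 and Cspg4. Mylk and the pericyte marker Rgs5 were lower, and Myh11, Tagln, Kcnj8 and Abcc9 had no call.

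Most genes of the FoxO and muscle wasting list fell. Trim63 and Fbxo32, ubiquitin ligases of muscle atrophy that glucocorticoids and FoxO factors are known to induce, read 5297 and 5338 against 742 and 788 and 2848 and 3235 against 536 and 498, SDS alone first, with log2 differences of -2.80 (adjusted p = 1.66e-14) and -2.55 (adjusted p = 5.96e-14). Of the 14 genes of that list 9 were lower and 3 higher. Outside that list, Cryab, a small heat shock protein of muscle, read 3188 and 3611 with SDS alone and 24130 and 23968 with Topsym (log2 difference 2.83, SE 0.05, adjusted p = 2.93e-15), and Ankrd1, an ankyrin repeat protein of stretched muscle, read 37 and 45.3 with SDS alone and 1168 and 1288 with Topsym (log2 difference 4.87, SE 0.22, adjusted p = 7.54e-11). Both stood far above the SDS libraries. Cryab overlaps Hspb2, so their reads may be mixed. Ankrd1 had been lower with Topsym at day 3 (-1.27), and the change from day 3 to day 5 was 6.14 (adjusted p = 5.9e-10). Arc, best known as a synaptic immediate early gene, read 165 and 115 with SDS alone and 1912 and 2109 with Topsym (log2 difference 3.86, SE 0.13, adjusted p = 2.73e-12), and Fosb, an AP-1 subunit, read 28.5 and 31.2 with SDS alone and 214 and 254 with Topsym (log2 difference 2.93, SE 0.11, adjusted p = 5.14e-12). Of 21 immediate early genes 11 were higher and 4 lower, but 7 and 6 with the length and GC trend removed, and Nr4a3, an orphan nuclear receptor, was lower at -2.56 (adjusted p = 4.11e-08).

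Cholesterol synthesis was higher in 18 of 24 genes and lower in 1, with a median of 0.43. Mvd and Tm7sf2, enzymes of the mevalonate and sterol steps, differed by 0.96 (adjusted p = 1.15e-07) and 0.97 (adjusted p = 6.2e-05). Fatty acid synthesis was mixed, with 6 of 20 higher and 8 lower. Fasn, fatty acid synthase, was higher at 0.78 (adjusted p = 4.92e-09), and Scd1, the stearoyl desaturase, lower at -0.40 (adjusted p = 4.52e-07). Thrsp, a lipogenic regulator, read 12.8 and 0 with SDS alone and 169 and 185 with Topsym (log2 difference 5.58, SE 0.70, adjusted p = 6.83e-06, and 0.0927 in the 4 libraries alone). It was absent from 1 SDS library and present in both Topsym libraries.

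Fat cell genes split. Adipoq, adiponectin, read 131 and 111 with SDS alone and 80.7 and 123 with Topsym with no call, against a mean of 1591 at day 0 with SDS alone. Plin1, the coat protein of lipid droplets, read 2.85 and 9.92 with SDS alone and 68.6 and 73.5 with Topsym (log2 difference 3.47, SE 0.30, adjusted p = 1.26e-07, and 0.0508 in the 4 libraries alone), and Cidec, which enlarges droplets, read 129 and 103 with SDS alone and 361 and 374 with Topsym (log2 difference 1.66, SE 0.09, adjusted p = 5.28e-10). Both were higher with Topsym although Adipoq overlapped. Of 20 adipocyte genes 9 were higher and 5 lower (Lpl, Cd36, Car3, Retnla and Ghr), with a median of -0.07. With the length and GC trend removed 7 were higher and 6 lower, at a median of -0.17. The summed level of the list was 27958 and 27537 with SDS alone and 31740 and 29949 with Topsym.

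In the hair follicle, stem cell genes were lower in 8 of 15 and higher in 2, and neither higher call was made without replicate 1 of SDS alone or replicate 2 of Topsym. DESeq2 called 5 of the list lower. Cd34, a bulge marker also found on vessels and fibroblasts, read 950 and 748 with SDS alone and 430 and 508 with Topsym (log2 difference -0.85, SE 0.09, adjusted p = 1.05e-06, and 0.0549 in the 4 libraries alone). Krt15 and Postn, described above, belong to the same list. Of 28 hair cycle signals 9 were higher and 9 lower, with the Wnt ligand Wnt10a at 1.08 (adjusted p = 1.49e-06) and the Wnt antagonist Sfrp1 at -1.63 (adjusted p = 1.44e-09). Of 14 hair shaft keratins 13 had no call. Among 16 sebaceous genes 8 were higher (5 without replicate 1 of SDS alone) and 5 lower, with a median of 0.07, but 6 were higher and 6 lower at a median of -0.03 with the length and GC trend removed. The 5 lower ones were Mc5r, Scd1, Scd3, Soat1 and Fa2h, and the lowest member of the list stood at -2.10. Krt79, a keratin of the sebaceous duct, read 20054 and 21840 with SDS alone and 47229 and 47088 with Topsym (log2 difference 1.17, SE 0.05, adjusted p = 1.23e-11), and Awat2, a wax synthase, read 48.4 and 41.1 with SDS alone and 173 and 169 with Topsym (log2 difference 1.92, SE 0.23, adjusted p = 3.56e-06), both higher without overlap.

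Clock genes were lower in 12 of 18 and higher in 0, with a median of -0.99. Per2, a repressor of the clock, read 333 and 268 with SDS alone and 105 and 89.5 with Topsym (log2 difference -1.61, SE 0.12, adjusted p = 1.69e-08). Hlf, a clock output factor, read 1224 and 1256 with SDS alone and 238 and 216 with Topsym (log2 difference -2.45, SE 0.08, adjusted p = 2.73e-12), and its relative Dbp read 259 and 214 with SDS alone and 88.7 and 62.3 with Topsym (log2 difference -1.65, SE 0.16, adjusted p = 6.04e-07). All 3 were lower without overlap. The activators Arntl and Clock were not called, at 0.06 and 0.06. The labels give no hour of sampling.

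Housekeeping programs moved by smaller amounts. Of 15 unfolded protein response genes 11 were higher and 1 lower, including the chaperone Hspa5, at 9872 and 9634 with SDS alone and 15946 and 15777 with Topsym (log2 difference 0.70, SE 0.04, adjusted p = 1.88e-09). Cytosolic ribosomal protein genes were higher in 27 of 30 and lower in 0, with a median of 0.34, but higher in 17 and lower in 3 at a median of 0.14 with the length and GC trend removed. Nuclear respiratory chain genes were higher in 20 of 29 and lower in 2, and higher in 13 and lower in 3 with the trend removed. Mitochondrially encoded genes were lower in 7 of 13, in 12 with the trend removed, but in only 2 without replicate 1 of Topsym or with a robust variance prior. mt-Co1, a subunit of cytochrome oxidase, read 144930 and 136920 with SDS alone and 103050 and 113930 with Topsym (log2 difference -0.38, SE 0.07, adjusted p = 0.00019, and 0.0597 in the 4 libraries alone).

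Other large differences lay outside these lists. Igfbp2, which binds insulin-like growth factors, read 452 and 407 with SDS alone and 3784 and 4039 with Topsym (log2 difference 3.18, SE 0.08, adjusted p = 9.77e-14). Ppp1r3c, a glycogen-targeting subunit of protein phosphatase, read 85.4 and 128 with SDS alone and 863 and 1021 with Topsym (log2 difference 3.16, SE 0.13, adjusted p = 1.28e-11), and Nppb, a natriuretic peptide, read 21.3 and 34 with SDS alone and 198 and 187 with Topsym (log2 difference 2.79, SE 0.35, adjusted p = 8.27e-06). These 3 were higher with Topsym. Mal, a membrane raft protein, read 397 and 422 with SDS alone and 32.3 and 41.5 with Topsym (log2 difference -3.45, SE 0.22, adjusted p = 3.33e-09), and Cyp7b1, an oxysterol hydroxylase, read 255 and 242 with SDS alone and 14.1 and 27.2 with Topsym (log2 difference -3.60, SE 0.30, adjusted p = 8.87e-08). Both were lower. Npy1r, a neuropeptide Y receptor, read 49.8 and 51 with SDS alone and had 0 reads with Topsym, at least 18.9-fold lower with 3 reads over the group as the floor.

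**Figure D3:**
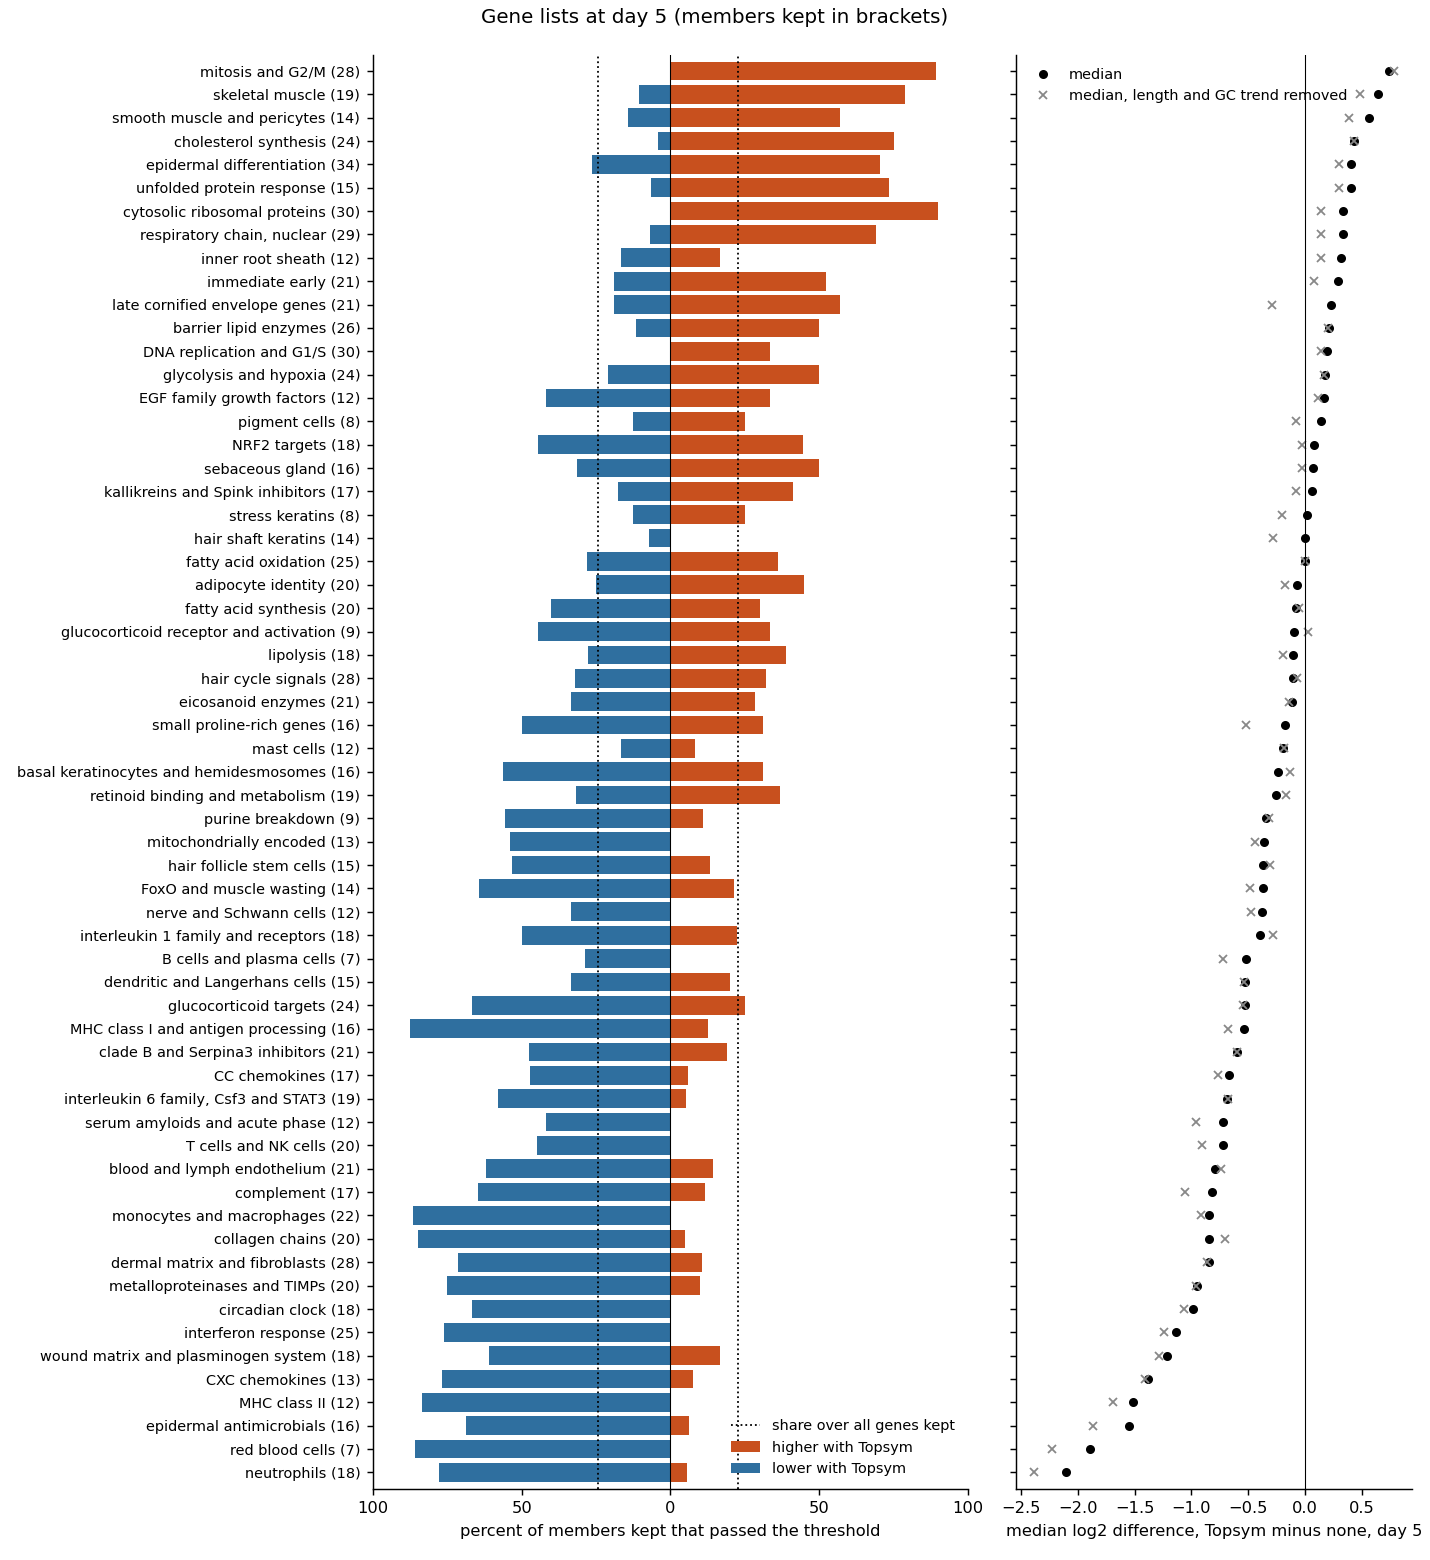
Left, percent of the kept members of each gene list called higher (orange) or lower (blue) with Topsym at day 5, with dotted lines at the share over all genes (22.6 and 24.2%). Right, the median log2 difference of each list (dots) and the same with the length and GC trend removed (crosses), from -2.10 for neutrophils to 0.74 for mitosis.

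The Topsym difference at day 5 was not the difference seen at day 3. Tested as an interaction in the same fit, whose contrasts share no library, 3639 genes (19.0%) had a higher and 3527 (18.4%) a lower log2 difference at day 5 than at day 3. Of 18 neutrophil genes, 10 had a higher difference at day 5 than at day 3 and 0 a lower one. Monocyte and macrophage genes moved mostly the same way (15 higher, 2 lower), from a median of -1.37 to -0.85. So did CXC chemokines (6 and 1), CC chemokines (5 and 2), acute phase genes (4 and 1) and complement genes (6 and 2). The epidermal antimicrobials did not, with a median of -0.56 at day 3 and -1.55 at day 5 (6 higher, 8 lower). Class I went from -0.28 to -0.54 (2 higher, 9 lower), and interferon response genes split 4 and 4. S100a9 was -4.39 then and -2.95 at day 5, a change of 1.43 (adjusted p = 1.82e-06), and Il1b went from -3.58 to -1.52, a change of 2.06 (adjusted p = 6.15e-07). Skeletal muscle changed sign, with Acta1 at -0.87 and then 1.08, a change of 1.96 (adjusted p = 6.46e-11), and 18 of the 19 list members had a higher difference at day 5. The muscle list median was -1.60 at day 0, 0.70 at day 1, -0.99 at day 3 and 0.64 at day 5. Its sign thus changed at each step, and the day 1 median was about as high as that at day 5. Mitosis genes narrowed, and 26 of 28 had a lower difference at day 5. Other differences were larger at day 5 than at day 3: Mmp13 went from 0.44 to -3.79, a change of -4.23 (adjusted p = 4.57e-06), and Sprr2i from -0.78 to -3.54, a change of -2.76 (adjusted p = 1.51e-06). For C3 the differences were -2.04 and -2.04, with a change of 0.0034 (adjusted p = 0.973). Either way, 37.3% of genes differed. Against day 1, 35.0% differed, with 3150 genes (16.4%) higher and 3560 (18.6%) lower. Against day 0, 34.9% differed, with 3311 (17.3%) higher and 3390 (17.7%) lower. The labels do not say what the Topsym group had received by day 0.

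**Figure D4:**
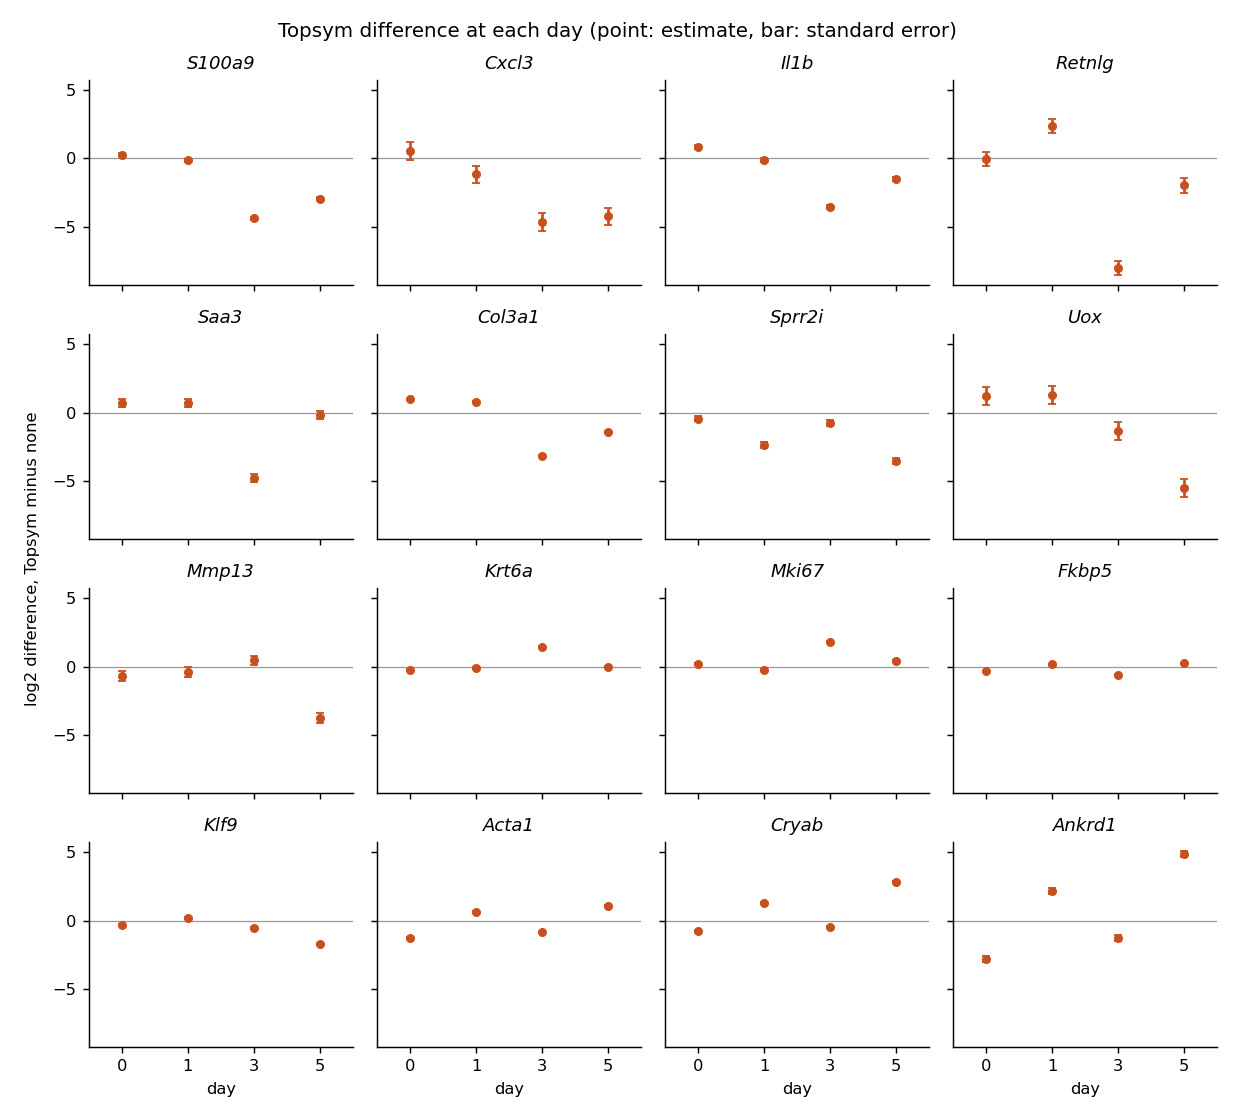
Log2 difference between Topsym and SDS alone (points) with its standard error (bars) for 16 genes at days 0, 1, 3 and 5, each day an independent pair of groups of 2 libraries. Cxcl3 is low at days 3 and 5, Saa3 and Retnlg are lowest at day 3, Uox, Mmp13 and Sprr2i are lowest at day 5, and Cryab and Ankrd1 are highest at day 5.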

How the data were processed

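Whole mouse skin was profiled in 16 RNA libraries, 8 groups of 2. The submitters' processing notes name the genome mm10 and, without roles, the tools HISAT2 2.2.1, Trim Galore 0.6.7, DESeq2 2.11.40.8 and featureCounts 2.0.3. The values deposited by the authors are a normalised signal per gene, which the values show to be read counts divided by 1 factor per library. All values were whole multiples of 1 step per library within a tolerance of 0.0001, which gave the reads back; in 1 day 0 Topsym library the step is so near 1 that rounding could look like it. The members, gene lists and named genes were chosen with earlier results of these data known.

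The filter on low values asked for 10 or more in at least 2 libraries. limma 3.58.1 in R 4.3.3 with a mean-variance trend was run on log2(value + 1) over all 8 groups, so errors pool all groups. The added 1 shrinks fold changes of low genes. Averaging logs can instead enlarge them where a library has almost no reads, as for Thrsp. The threshold was a Benjamini-Hochberg adjusted p of 0.05. edgeR 4.0.16 (quasi-likelihood) and DESeq2 1.42.0 were run on the recovered reads as alternatives. Named genes were the 15 largest rises and 15 largest falls among called genes whose higher group averaged 100 or more and with no overlap between groups (predicted, clone-named and pseudogenes left out), up to 4 called members with the largest difference and the first 2 members of each of 61 lists, the 5 largest each way per difference between days, and 28 followed genes, 360 in all. A few marker genes outside this rule were named after their values were seen. Of 1144 listed genes 1111 were kept. Of the named genes 94 overlap another gene, and the use of strand in counting was not stated. Positions are from GENCODE M21 (GRCm38) for 31952 genes, promoters from RefSeq (GRCm38.p6), matched for 271 named genes. Intervals cover counting error only.

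In simulated counts for all 16 libraries, with 19190 genes kept and 200 changed at day 5, 68.7% of 1.5-fold, 82.1% of 2-fold and 100% of 4-fold changes were recovered. Of 220 genes called, 53 (24.1%) were false, and 13 of 178 (7.30%) with a level of at least 100 in the higher group. The share over all called genes lay above the threshold, so calls can be less reliable than it states. Both shares depend on how many genes were changed and at which levels. They therefore do not give the share of false calls in the real data, and cannot tell how reliable calls of low genes are. Same-numbered libraries did not deviate together (correlations -0.149 to 0.168 over 28 pairs of groups), so numbers were not taken as pairs. Some genes of the lists are not reported here by name.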

Additional observations from a re-analysis of the deposited data

Results flagged for a closer look

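The Topsym difference varied with the day, as tested by interaction terms in limma. From day 3 to day 5 it rose for 3639 genes and fell for 3527. The 5 largest gains among genes chosen by rule were Ankrd1 at 6.14 on the log2 scale, Retnlg at 6.08, Nos2 at 5.64, Itgb2l at 4.82 and Saa3 at 4.60. For Itgb2l neither edgeR (adjusted p = 0.942) nor DESeq2 (adjusted p = 0.0545) called the change. The 5 largest losses were Cntn2 at -4.65, Tmprss11g at -4.60, Npy1r at -4.44, Mmp13 at -4.23 and Uox at -4.21.

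From day 1 to day 5 the difference rose for 3150 genes and fell for 3560. Gains were led by Thrsp at 4.71, Nmrk2 at 4.66, Hdhd3 at 4.13, Lars2 at 4.11 and Aqp5 at 3.76. Losses were led by Uox at -6.82, Chil3 at -6.72, Mmp8 at -5.84, Rgs1 at -5.77 and Ifi206 at -5.04.

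From day 0 to day 5 it rose for 3311 genes and fell for 3390. Gains were led by Ankrd1 at 7.70, Thrsp at 6.35, Myod1 at 6.20, Plaat1 at 5.22 and Panx3 at 4.77. Losses were led by Tchhl1 at -7.89, Pyy at -6.95, Uox at -6.78, Slfn4 at -6.50 and Phf11a at -6.33. Changes of genes with 0 reads in a group depend on the pseudocount and are no bounds.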

How the results depend on the processing

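The counts of genes called at day 5 were 4095 higher and 4190 lower with edgeR, 4048 and 4144 with DESeq2, 4356 and 4611 with TMM factors, 3905 and 4685 with the length and GC trend removed (added after seeing the data), and 4300 and 4606 with the replicate number as a block, although the numbers do not pair the libraries. Using only the 4 libraries gave 2196 and 1832, and requiring a log2 difference of at least 1 gave 937 and 1816. With that requirement the changes between days were 1394 and 1194 against day 3, 772 and 1559 against day 1, and 1027 and 1734 against day 0. Leaving out 1 library gave 3874 to 4120 higher and 4158 to 4558 lower calls at day 5, 3025 to 3807 and 2930 to 3784 against day 3, 2512 to 3212 and 2863 to 3834 against day 1, and 2760 to 3315 and 2751 to 3601 against day 0. With the trend removed the direction reversed for Lce1a1 (-0.25), Krt16 (-0.0059) and Ndufa1 (-0.079). Leaving out 1 library at a time, Ccl2 ranged from -1.07 to 0.69 and Nr3c2 from -1.38 to 1.18. The causes were not tested. Of 360 named genes, 95 lost their call with only the 4 libraries, 10 with edgeR and 9 with DESeq2. Having 2 libraries per group and low read counts limit all calls of scarce genes.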
